A study of Mus musculus with 16 samples.

Results

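The Ctrl + Saline group is the baseline of the study, and it held 3 of its 16 mice. The mice were chosen by their GEO labels and not by any measured value. They were male C57BL/6 mice, 8 to 10 weeks old per the study's methods, labelled as wild type and with no morphine. The control virus, pAAV-U6-shRNA (NC)-CMV-EGFP-WPRE, carried a hairpin RNA that is not directed at Kdm7a and was delivered to the medial prefrontal cortex (mPFC) 20 days before the first test of place preference. The mice were then conditioned with saline for 10 days. By the paper's account, the mPFC was removed on day 17, the 7th day after conditioning ended, directly after the last test of place preference. The profile is therefore that of an injected, handled and behaviourally tested cortex. One mPFC sample was sequenced per mouse as full-length cDNA on the Nanopore platform, and the other groups are not compared here.

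The mPFC is a layered cortex. Its pyramidal neurons release glutamate, load it into vesicles with the transporter encoded by Slc17a7, and answer it through AMPA and NMDA receptors. Its interneurons make GABA with the enzymes encoded by Gad1 and Gad2 and carry marker peptides such as Npy, Sst and Vip. Dopamine, serotonin, noradrenaline and acetylcholine reach this tissue in the axons of neurons whose cell bodies, and most of whose mRNA, lie elsewhere, so that for these systems a cortical sample holds mainly the receptor mRNAs.

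The authors counted 7440027, 9768835 and 7081172 reads in mice 1, 2 and 3, within the range of 6596991 to 12418112 over all 16 mice. Values are CPM, a mouse's count scaled to a total of 1e+06, and a count of 3, used as the smallest detectable level, was 0.403, 0.307 and 0.424 CPM in the 3 mice. Across 19069 known genes, log2(CPM + 1) of 2 mice correlated at 0.986 to 0.988 (Pearson's r). Genes are not independent replicates, and all pairs share the same gene lengths and counting. No mouse stood apart on that measure. Each mouse had genes on which it differed from the other two, and these are given below. A read here stands for 1 long cDNA, so CPM is not a read density. Levels of different genes are given in CPM, and each order between genes was also checked on CPM per kb of the gene's reference transcript.

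The promoters of 8 genes that the results below return to are shown first, because they place the gene targeted by the study, the most abundant gene, the transmitter genes and a gene that differed widely between mice side by side. Each line holds the 120 bases before the RefSeq start site on the gene's own strand (GRCm38.p6). Capitals mark CG dinucleotides, the sites of DNA methylation, and the motif TATAAA, which was searched on both strands.
Gapdh: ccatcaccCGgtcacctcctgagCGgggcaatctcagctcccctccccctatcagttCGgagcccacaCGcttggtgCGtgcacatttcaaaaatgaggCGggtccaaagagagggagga
Kdm7a: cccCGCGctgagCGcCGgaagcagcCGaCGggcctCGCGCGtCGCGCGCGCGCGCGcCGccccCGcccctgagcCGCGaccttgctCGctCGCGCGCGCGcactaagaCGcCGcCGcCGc
Fscn1: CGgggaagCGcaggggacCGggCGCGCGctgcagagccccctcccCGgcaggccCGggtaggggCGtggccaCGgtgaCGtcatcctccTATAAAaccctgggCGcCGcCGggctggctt
Slc17a7: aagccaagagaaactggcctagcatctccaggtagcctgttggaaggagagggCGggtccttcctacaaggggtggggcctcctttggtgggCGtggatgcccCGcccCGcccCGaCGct
Gad1: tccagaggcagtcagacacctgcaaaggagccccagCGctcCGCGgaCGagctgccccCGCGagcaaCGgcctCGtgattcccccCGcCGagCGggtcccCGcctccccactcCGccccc
Npy: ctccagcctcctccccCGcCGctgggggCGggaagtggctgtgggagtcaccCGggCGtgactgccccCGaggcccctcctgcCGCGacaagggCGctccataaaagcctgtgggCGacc
Vip: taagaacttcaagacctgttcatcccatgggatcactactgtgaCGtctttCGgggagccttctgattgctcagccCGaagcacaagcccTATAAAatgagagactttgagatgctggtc
Jchain: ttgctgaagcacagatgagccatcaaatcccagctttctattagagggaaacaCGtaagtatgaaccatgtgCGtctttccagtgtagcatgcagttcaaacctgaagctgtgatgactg

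These windows lie at chr6:125165774-125165893 for Gapdh, chr6:39206774-39206893 for Kdm7a, chr5:142960235-142960354 for Fscn1, chr7:45163801-45163920 for Slc17a7, chr2:70562009-70562128 for Gad1, chr6:49822590-49822709 for Npy, chr10:5639098-5639217 for Vip and chr5:88527898-88528017 for Jchain. Those of Gapdh, Kdm7a and Jchain are on the minus strand and the others on the plus strand. The RefSeq starts of Gapdh, Kdm7a, Fscn1 and Gad1 lie inside the spans that GENCODE gives these genes. The Kdm7a window held 30 CG dinucleotides and was 83.3% G or C, and 99.99% of the 32851 windows of the same length in the RefSeq table held fewer. The median window held 3 (quartiles 1 and 9). The Fscn1 window held 14, that of Gad1 13, that of Npy 10, those of Gapdh and Slc17a7 6 each, that of Vip 3 and that of Jchain 2. TATAAA lay in the windows of Fscn1 and Vip, and 6.34% of all windows held it on either strand. A match of letters is a description and not a binding site. The number of CG dinucleotides did not follow the order of the levels, since Gapdh was by far the most abundant of the 8 genes by mean CPM and Kdm7a the least, although Jchain was lower than Kdm7a in mouse 3.

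The table listed 26625 entries, of which 19069 were known genes. At 1 CPM or more in every mouse, 16102 entries and 12604 known genes were detected, and 1511 known genes had no read in any of the 3 mice. The baseline was concentrated in few genes. The 100 most abundant entries held 27.3% ± 0.968 of the counts (SD, n = 3), the first 1000 held 64.0% ± 0.571, and 466 entries held 50% of the summed mean CPM. At the other end, the 16625 entries ranked over 10000 held 2.62%, 2.69% and 2.82% in the 3 mice. Known genes with a mean of at least 1000 CPM numbered 119, and 3 of them exceeded 10000 CPM. The curve of level against rank had nearly the same course in the 3 mice beyond the first ranks.

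**Figure D1:**
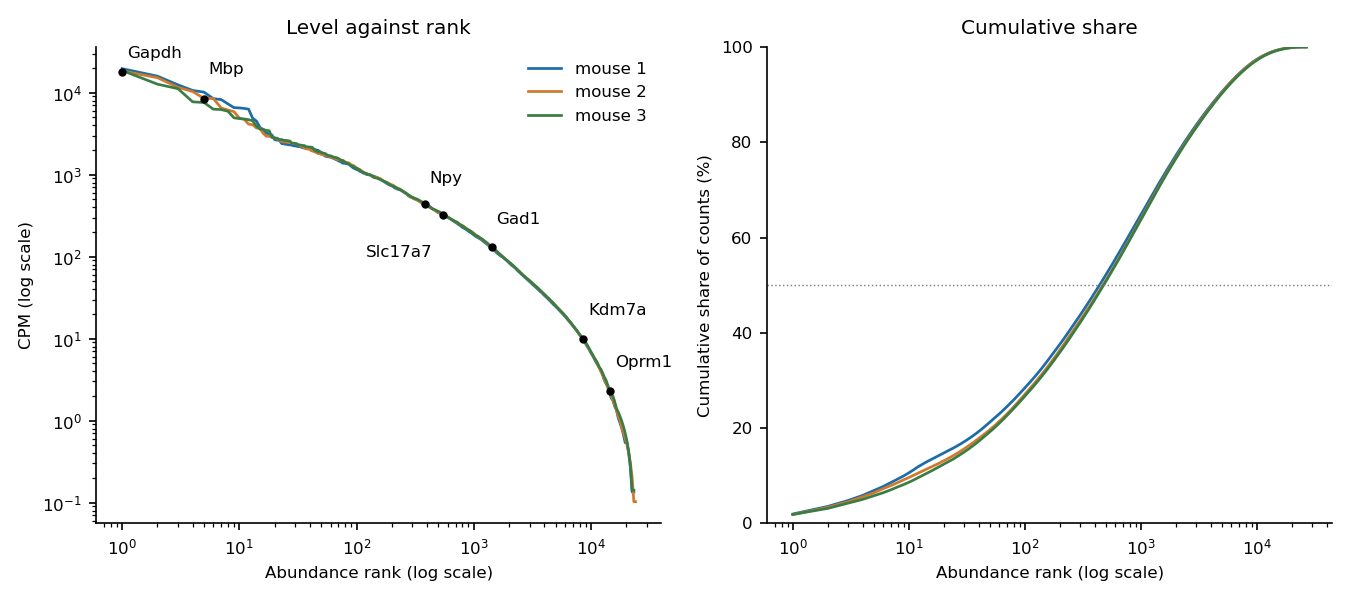
Left, CPM against abundance rank over all entries, both on log scales, with each mouse ranked on its own as a line and 7 genes marked at their mean CPM and rank over the 3 mice. Right, the cumulative share of counts against rank, with a dotted line at 50%. The 3 lines part mainly over the first ranks, where mouse 1 lies highest (28.3% of counts on the 100 most abundant entries of the group, against 26.99% and 26.47%).

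Gapdh, a glycolytic enzyme and the usual reference of qRT-PCR, led the known genes with 15941, 18484 and 18709 CPM. It lies at chr6:125161715-125166467 on the minus strand (GENCODE vM21, GRCm38). Mice 2 and 3 were close together and mouse 1 lower. Other genes of glycolysis followed, Pkm (pyruvate kinase) at 13493 ± 1543 CPM and Aldoc (the aldolase of brain, strong in astrocytes) at 10009 ± 1393 CPM (mean ± SD, n = 3). Mbp, the myelin basic protein of oligodendrocytes, came next at 8378 ± 2365 CPM. Psap, the precursor of the lysosomal saposins, stood at 8129 ± 480 CPM, and Ppia, a peptidyl-prolyl isomerase, at 6952 ± 689 CPM. On CPM per kb of transcript the order at the top changed, since Mbp, with a short reference transcript of 638 bases, rose to the first rank (13132 per kb) ahead of Gapdh (12473 per kb). Of the 20 most abundant known genes by CPM, 13 were among the 20 highest per kb.

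Secreted and lipid-handling proteins of glia and meninges formed another part of the top. Ptgds, the prostaglandin D synthase of oligodendrocytes and meninges, had 5692 ± 1407 CPM, Cst3, the protease inhibitor cystatin C, 3800 ± 874 CPM, and Apoe, the main lipid carrier of brain, 5635 ± 4173 CPM. Apoe was far from even, with 10169.5, 1956 and 4780 CPM in mice 1, 2 and 3. Fth1, the heavy chain of ferritin that stores iron, had the same order, with 6311, 930 and 3598 CPM. Genes of the cytoskeleton and of signalling were also among the first 20, such as Myl6 (myosin light chain, 4860 ± 105 CPM), Tmsb10 (thymosin, 4380 ± 269 CPM), Chn1 (a GTPase-activating protein of neurons, 3617 ± 371 CPM) and Gnas (the stimulatory G protein, 2821 ± 299 CPM). The noncoding RNA Gas5, a host of small nucleolar RNAs, was counted at 2640, 2822 and 2432 CPM, and Meg3, a noncoding RNA abundant in neurons, at 976, 1066 and 1104 CPM.

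Genes of the ribosome made up 26 of the 100 most abundant known genes. The 85 ribosomal protein genes summed to 91806, 84029 and 88489 CPM in mice 1, 2 and 3. In CPM, Rps24 led them with 6332 ± 191, followed by Rpl41 with 6187 ± 280 and Rpl38 with 3403 ± 189. Their reference transcripts have 1613, 582 and 457 bases. Per kb, Rps24 therefore stood below both Rpl41 and Rpl38, so this order depends on the scale. The 13 protein genes of the mitochondrial genome summed to 7971, 12204 and 10568 CPM, so that mouse 1 was lowest there and highest for the ribosome. mt-Nd4, a subunit of respiratory complex I, had 2219, 4146 and 3576 CPM. Ribosomal protein genes, Gapdh, Ppia and Fth1 have many near-identical processed copies in the mouse genome, so their counts are uncertain where a read could be placed on a copy.

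Assembled loci, built from the reads of the study and not from an annotation, took 10.8%, 9.93% and 9.40% of the counts. They have no gene name, and their positions were not used here. Of these, 3304 were at 1 CPM or more in every mouse. One of them, ONT.15475, was the third most abundant entry of the group and also one of the least even, with 19678, 11652 and 26.3 CPM in mice 1, 2 and 3.

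The tissue was checked against its defining markers. Every pan-neuronal marker measured (12 of 12), every marker of excitatory neurons (10 of 10), astrocytes (16 of 16), oligodendrocytes (17 of 17), microglia (17 of 17) and mural cells (9 of 9) was at 1 CPM or more in all 3 mice. Fewer passed in layer 4 (1 of 3), interneurons (7 of 12) and oligodendrocyte precursors (6 of 8). Layer 5 had 8 of 8, upper layers and layer 6 7 of 8 each, interneuron subclasses 13 of 15 and endothelial cells 14 of 15. Of the neighbouring tissues, dentate gyrus and thalamus had 7 of 9 and striatum 8 of 13. This level of detection therefore does not separate the tissue from its neighbours. Over all 19 lists of cell classes and neighbouring tissues, 172 of 206 measured genes were at 1 CPM or more in every mouse. Of all 19069 known genes, 12604 were, and the transmitter lists described below, with 132 of 195, lay near that share. In a bulk sample a lower level can come from fewer cells of a class or from less RNA per cell, and these cannot be told apart. Marker lists also differ in length and in the strength of their genes, so their sums do not give proportions of cells. The order of the sums depends on the scale, since astrocytes led in CPM (14626, against 11667 for oligodendrocytes) and oligodendrocytes led per kb (14546, against 5218). Most of the oligodendrocyte sum per kb was Mbp, whose reference transcript has 638 bases, so the change of order rests on that gene and transcript.

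**Figure D2:**
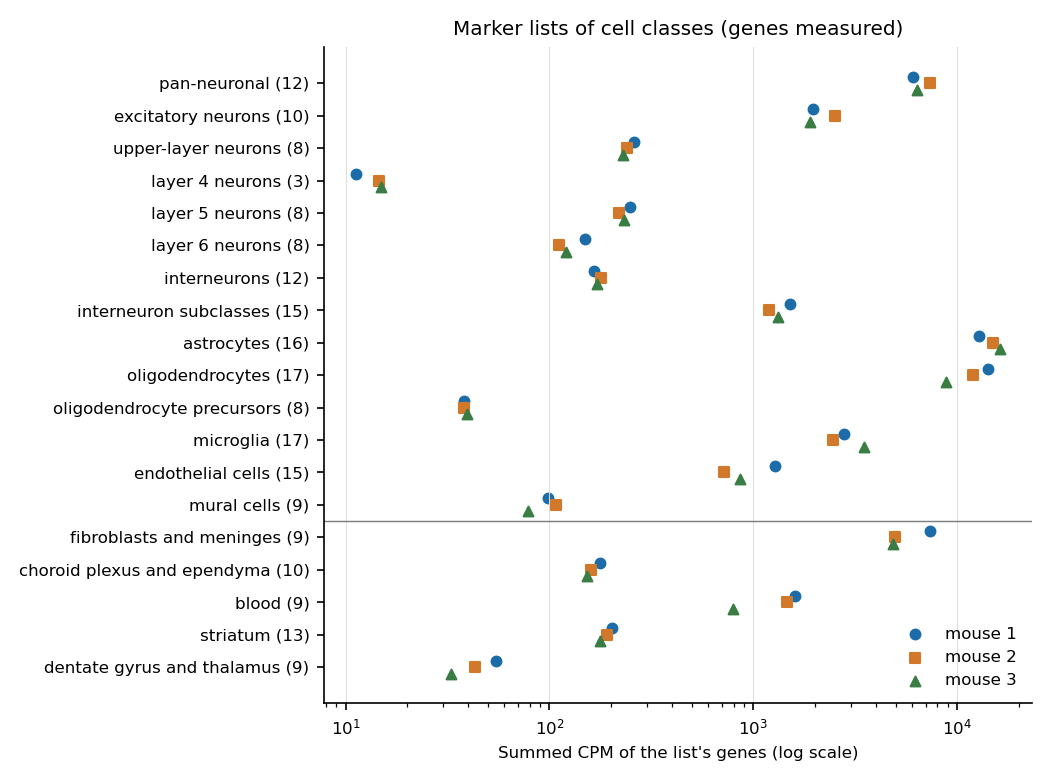
Summed CPM of each marker list on a log scale, 1 point per mouse, with the number of measured genes in brackets and neighbouring tissues under the line. Astrocyte, oligodendrocyte and pan-neuronal lists lie near or above 6000 CPM in every mouse, and the layer 4, precursor and dentate gyrus and thalamus lists lie under 60 CPM.

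Among neurons, Uchl1, a ubiquitin hydrolase, was the highest pan-neuronal marker with 2374, 2865 and 2422 CPM. Syt1, the calcium sensor of vesicle release, followed with 945, 1208 and 885 CPM, and Map2, of dendritic microtubules, with 645, 936 and 755. All 3 were highest in mouse 2. On CPM per kb Uchl1 also led, at 2170, and Snap25, of the release machinery, was second at 307. Rbfox3, which encodes the nuclear antigen NeuN, had 222, 315 and 240 CPM, and the lowest member, the heavy neurofilament Nefh, had 7.53, 7.88 and 7.48 CPM. The light and medium neurofilaments were less even, with 140, 92.3 and 154 CPM for Nefl and 66.4, 28.0 and 48.2 CPM for Nefm, and mouse 2 was lowest for both.

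Excitatory neurons were marked by Camk2a, the kinase of the postsynaptic density, at 671, 1153 and 695 CPM, and by Nrgn, a calmodulin-binding protein of the same site, at 586, 760 and 534 CPM. Slc17a7 had 378, 279 and 321 CPM and lies at chr7:45163949-45176142 on the plus strand. Mouse 2 was highest for the first 2 genes and lowest for Slc17a7, so that these markers of a single class did not move together between mice. On CPM per kb, Nrgn (431) led Camk2a (169) and Slc17a7 (112). The transcription factors of the class were much lower in CPM, and per kb the 3 named here were under 15. Neurod6 had 29.8, 29.4 and 34.6, Tbr1 9.27, 13.7 and 14.97, and Neurod1 4.17, 6.35 and 5.79.

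Genes of the cortical layers were present at low to moderate levels. In the upper-layer list, Lamp5 led and was steady at 145, 141 and 141 CPM. Lamp5 is also in the list of interneuron subclasses, so its level cannot be assigned to upper-layer neurons alone. Calb1 had 53.0, 38.9 and 35.0 CPM, and Cux2, a factor of layers above the fifth, 11.7, 15.9 and 9.89 CPM. In layer 5, Crym had 130, 105 and 124 CPM, and Fezf2, which specifies subcerebral projection neurons, 25.4, 20.1 and 18.1 CPM. In layer 6, Rprm led with 85.8, 61.3 and 68.5 CPM and Tle4 had 21.9, 18.6 and 21.9. The layer 4 list was the lowest of all, with Rorb at 9.95, 13.2 and 14.4 CPM and the other two, Rspo1 and Scnn1a, under 1 CPM in at least 2 mice. Layer 4 is thin or absent in the mouse mPFC, which is background and was not tested here.

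Interneurons were marked by Gad1 at 125, 136 and 130 CPM and Gad2 at 13.2, 11.9 and 11.6 CPM. Gad1 lies at chr2:70553072-70602014 on the plus strand. Slc32a1, the vesicular GABA transporter, had 4.30, 6.14 and 3.67 CPM. The interneuron genes Dlx1, Lhx6 and Adarb2 lay between 2.69 and 9.01 CPM in every mouse, and Sp8 and Sp9 were at or under 3 counts in all 3 mice. Of the peptide mRNAs of interneurons, Npy and Sst exceeded Gad1 in CPM in every mouse, and Vip did not. Npy had 469, 385 and 469 CPM, Sst 272, 213 and 262, and Vip 78.9, 83.6 and 115. Pvalb, the calcium-binding protein of fast-spiking cells, had 53.2, 61.6 and 62.3 CPM. On CPM per kb, Npy (779), Sst (345) and Cck (316) kept the first 3 places of the 15 subclass genes. Cck, which pyramidal cells also express, had 382, 202 and 159 CPM and the widest spread of the 3.

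Astrocyte genes summed to 12740, 14957 and 16180 CPM, most of it Aldoc. Glul, which turns glutamate into glutamine, was the second and was even across mice at 1742 ± 44.3 CPM. Slc1a2, the main glutamate transporter, had 517, 781 and 727 CPM. Aqp4, the water channel of astrocyte endfeet, was highest in mouse 3, with 29.4, 38.5 and 61.4 CPM, and Gfap, a filament of reactive and fibrous astrocytes, had 180, 103 and 229 CPM. Of the 16 genes, 10 were highest in mouse 3 and 12 were lowest in mouse 1. Among the 6907 known genes with a mean count of at least 100, 2457 were highest in mouse 3 and 2909 lowest in mouse 1.

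Oligodendrocyte genes were highest where astrocyte genes were lowest. They summed to 14225, 11961 and 8816 CPM, with 14 of 17 highest in mouse 1 and 13 of 17 lowest in mouse 3, against 1831 and 1960 of the 6907 known genes. Mbp had 10671, 8516 and 5948 CPM, Mobp 526, 492 and 397, Cnp 368, 316 and 236, and Mag 140, 136 and 78.9. The precursors of these cells were scarce in mRNA, with the list at 37.9, 38.1 and 39.4 CPM in sum and Pdgfra at 10.1, 13.1 and 10.3 CPM.

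Microglial genes summed to 2773, 2456 and 3473 CPM, with 13 of 17 highest in mouse 3 and 13 of 17 lowest in mouse 2, against 2457 and 2038 of the 6907 known genes. Ctss, a lysosomal protease, led in CPM with 846, 907 and 1205, and Tyrobp, an adaptor of immune receptors, had 400, 365 and 551 CPM. Per kb, Tyrobp (778) stood before Ctss (728). P2ry12, a receptor of surveying microglia, had 94.1, 92.5 and 115 CPM and Cx3cr1 82.8, 70.3 and 84.0.

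Vessel genes were lower. Bsg, which also marks other cells, made up most of the endothelial sum with 912, 343 and 530 CPM, and Ly6c1 followed with 99.3, 110 and 97.3 CPM. Cldn5, of the tight junctions of the blood-brain barrier, had 25.3, 5.53 and 7.63 CPM, whereas Flt1, of the same cells, had 11.4, 8.91 and 8.90. Mouse 1 was therefore well above the other two for Bsg and Cldn5 and much nearer to them for Flt1. Mural cells were marked by Rgs5 at 34.8, 35.1 and 29.8 CPM and Pdgfrb at 12.8, 11.9 and 9.32 CPM.

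Genes of neighbouring tissues differed widely in level. The median member lay between 1.35 CPM (choroid plexus and ependyma) and 7.24 CPM (blood). The median known gene had 5.51, 5.53 and 5.37 CPM in mice 1, 2 and 3. Enpp2, which oligodendrocytes also express, made up most of the choroid plexus and ependyma list with 158, 134 and 135 CPM, whereas the defining choroid plexus genes were low, with Ttr at 0.806, 2.35 and 4.52 CPM and Folr1 at 0.672, 1.64 and 0.141 CPM. Of the striatal genes, Drd2 had 0.538, 1.43 and 0.706 CPM and Adora2a 3.63, 3.48 and 3.11 CPM, while Ppp1r1b, which deep cortical neurons also express, had 65.6, 48.3 and 46.3 CPM. Others of that list were not scarce, since Tac1, Penk, Pde10a and Rgs9 had at least 58.7, 18.5, 18.3 and 14.9 CPM in every mouse. Prkcd led the dentate gyrus and thalamus list with at least 11.5 CPM in every mouse, and Tcf7l2 had between 6.64 and 17.7 CPM. Prox1, of the dentate gyrus, had 2.28, 5.12 and 1.55 CPM, and Dsp had no read in any mouse. Of the fibroblast and meningeal list, Ptgds, which oligodendrocytes also express, made up nearly all of the sum, and the fibroblast genes were low. Dcn had 22.8, 12.7 and 9.04 CPM and Igf2 23.7, 15.9 and 7.20 CPM, and 8 of the 9 genes of that list were lowest in mouse 3. Red cell genes were clearly present, with Hba-a1 at 448, 413 and 218 CPM and Hbb-bs at 447, 385 and 221, and all 9 blood genes were lowest in mouse 3. Of the 6907 known genes with a mean count of at least 100, 1960 were lowest in that mouse. Only 4 of the 9 blood genes and 3 of the 9 fibroblast and meningeal genes reached that mean count. Hba-a1 and Hba-a2 are near-identical, so the division of reads between them is uncertain. As a check of the labelled sex, the Y-linked genes Ddx3y, Eif2s3y, Kdm5d and Uty were at 4.50 CPM or more in all 3 mice.

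A ratio of GABA to glutamate genes was taken as (Gad1 + Gad2) over Slc17a7 in CPM. It sets mRNAs of synthesis enzymes against that of a vesicular transporter and does not measure the transmitters. The vesicular GABA transporter gene Slc32a1 had at most 6.14 CPM, so the ratio depends on the genes chosen. The ratio was 0.366, 0.531 and 0.443 in mice 1, 2 and 3, or 0.446 ± 0.0827 (SD, n = 3). Slc17a7 spread more between mice than Gad1, with a CV (the SD over the mean of CPM) of 0.154 against 0.0417. Gad1 was 9.51, 11.5 and 11.3 times as abundant as Gad2 in CPM. On CPM per kb the ratio of GABA to glutamate genes was 0.374. Of the other vesicular glutamate transporters, Slc17a6, which dominates in thalamus, had 1.75, 2.87 and 1.98 CPM and Slc17a8 0.672, 0.409 and 0.565, so Slc17a7 was higher than both in every mouse and per kb.

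Glutamate uptake and recycling genes were mainly glial. Slc1a2 exceeded Slc1a3, the second glial transporter, by 6.24, 8.13 and 7.58 times in CPM. Slc1a1, the neuronal transporter, had 25.3, 24.98 and 24.7. The list summed to 2936, 3059 and 3092 CPM.

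All 4 AMPA receptor subunits were detected. Gria2, the subunit whose editing limits calcium entry, had 305, 402 and 468 CPM and made up 53.2% ± 6.29 of the family's CPM. Gria1 followed with 211, 309 and 210 CPM, and the ranges of these 2 overlapped between mice. Gria3 (67.9, 70.2 and 70.9 CPM) and Gria4 (33.7, 26.7 and 25.6 CPM) were lower in every mouse. Per kb, Gria1 (45.1) stood before Gria2 (37.8), whose reference transcript is 10371 bases long, so the order of the first 2 depends on the scale. Among NMDA receptor genes, the obligatory subunit Grin1 led with 140, 101 and 99.3 CPM. Grin2b had 43.95, 57.0 and 42.9 CPM and Grin2a 19.6, 30.6 and 25.6 CPM, a ratio of 0.446, 0.537 and 0.595. Per kb Grin1 (26.7) also led, and Grin2b (1.99), Grin2a (1.73) and Grin2c (1.57) lay close together. Grin3b was the lowest with 1.21, 0.512 and 1.27 CPM. The 4 kainate genes other than Grik4, namely Grik5, Grik2, Grik1 and Grik3, lay between 9.74 and 22.5 CPM. In that order, the ranges of neighbours overlapped, but Grik5 was higher than Grik3 in every mouse.

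Metabotropic glutamate receptors were led by Grm5, which signals through calcium release, at 17.6, 27.7 and 19.9 CPM. Grm7 and Grm8, presynaptic members, had 11.4, 13.7 and 14.7 CPM and 8.87, 10.5 and 8.47 CPM. Per kb, Grm7 (3.16) stood before Grm5 (2.70). Grm6, the receptor of retinal bipolar cells, had 1 read, in mouse 1.

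GABA-A receptor genes were detected for all main classes of subunit. Gabra3, an alpha subunit, had 44.4, 60.7 and 52.5 CPM, with mouse 1 lowest. Gabrd, of extrasynaptic receptors, had 15.7, 7.58 and 15.8 CPM, with mouse 2 well below the other two. Of 17 measured genes, 12 were at 1 CPM or more in every mouse, against 12604 of all 19069 known genes. Gabre and Gabrr1, which belong to other tissues and to retina, were at or under 3 counts in each mouse. For the GABA-B receptor, a heterodimer, Gabbr1 had 249, 355 and 273 CPM and Gabbr2 23.1, 27.2 and 22.9, so that Gabbr1 held 92.2% ± 0.678 of the pair's CPM. Receptor genes of 9 families are shown side by side in the plot of receptor levels.

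**Figure D3:**
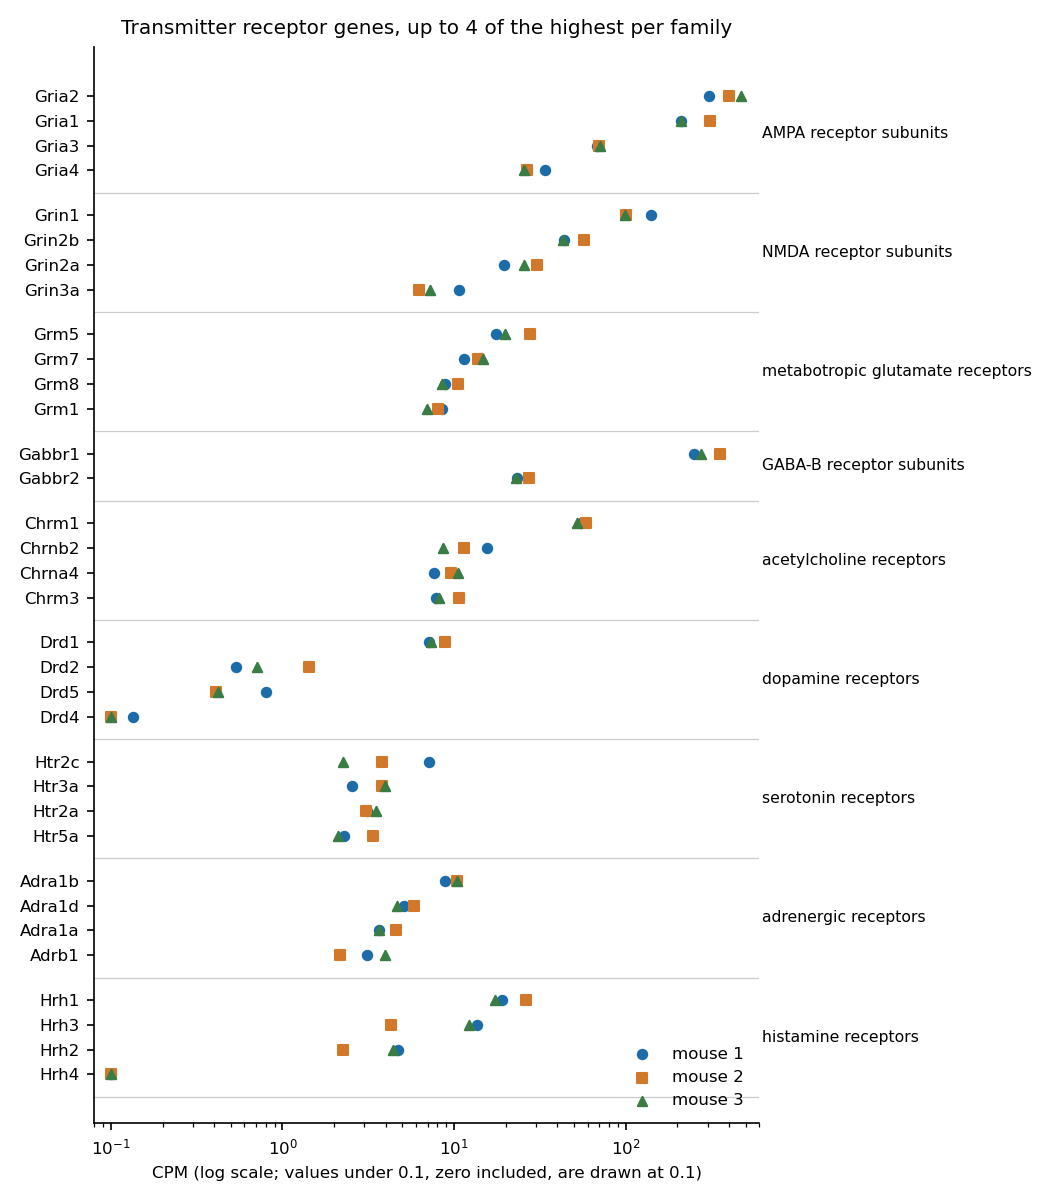
CPM on a log scale of up to 4 of the highest genes of 9 receptor families, 1 point per mouse. Gria2, Gria1 and Gabbr1 lie above 200 CPM in every mouse, whereas no dopamine, serotonin or adrenergic receptor gene exceeds 11 CPM.

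The monoamine systems were represented by few of their synthesis and transport genes. Th, the first enzyme of dopamine and noradrenaline synthesis, had 3.49, 2.46 and 3.67 CPM, and Ddc, the next enzyme, 19.5, 23.9 and 20.2. Slc6a4, the serotonin transporter, had no read in any mouse, which allows up to 0.403, 0.307 and 0.424 CPM. Dbh had 1 read in all, and Tph2, Tph1, Slc6a3 and Slc6a2 were at or under 3 counts in each mouse. Maob, an enzyme of monoamine breakdown, was even at 16.9, 18.7 and 17.1 CPM. In all, 6 of the 16 genes were at 1 CPM or more in every mouse, against 12604 of all 19069 known genes. At or under 3 counts in each mouse were 9 of the 16.

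Among dopamine receptors Drd1 had 7.12, 8.80 and 7.34 CPM, or 84.1% ± 2.26 of the CPM of the 4 measured genes, and it led per kb as well (2.20, against 0.350 for Drd2). Drd5 had 0.806, 0.409 and 0.424 CPM and Drd4 had 1 read in mouse 1. Serotonin receptors were low and hard to order, since the ranges of neighbours from Htr2c to Htr1b overlapped. Htr2c had 7.12, 3.79 and 2.26 CPM, Htr2a, a target of psychedelic drugs on pyramidal cells, 3.09, 3.07 and 3.53, Htr3a, of interneurons, 2.55, 3.79 and 3.95, and Htr1a 2.15, 3.79 and 1.69. Htr3b had no read. Of the adrenergic receptors, Adra1b was highest with 8.87, 10.4 and 10.5 CPM, and Adra2a, the receptor through which guanfacine acts on the prefrontal cortex, had 1.75, 1.23 and 1.27. Hrh1 led the histamine receptors with 19.1, 26.4 and 17.4 CPM, and Hrh3, a presynaptic autoreceptor, had 13.6, 4.30 and 12.1, again with mouse 2 lowest. Hrh4 had no read.

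The cholinergic picture was similar. Chat, the synthesising enzyme, had 1 read in mouse 3 and none in the others, Slc18a3 1 read in mouse 2, and Slc5a7 at most 2 reads in a mouse. Ache, which breaks the transmitter down, had 23.3, 18.0 and 8.33 CPM, with mouse 3 lowest. The muscarinic receptor Chrm1 stood above every other receptor of the list, with 55.1, 58.8 and 52.0 CPM, in each mouse and per kb. The nicotinic subunits Chrnb2 (15.6, 11.4 and 8.61 CPM) and Chrna4 (7.66, 9.62 and 10.6 CPM), which assemble with each other, came next with overlapping ranges. Chrna7, a widely studied brain subunit, had 1 read in mouse 2 only. Of glycine genes, Glrb, the beta subunit, had 77.6, 54.97 and 82.5 CPM and Slc6a9, the glial transporter, 41.4, 64.8 and 50.8, while Glra1 had no read and Glra2 had 4.03, 4.09 and 4.66 CPM.

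The opioid system, through which morphine acts, was low at the receptor genes. Oprm1, the mu receptor, had 1.08, 2.35 and 3.39 CPM on 8, 23 and 24 reads, Oprk1 1.34, 1.54 and 1.84 CPM and Oprd1 0.403, 1.74 and 0.565. The ranges of these 3 overlapped, and no order among them could be read at this depth. Oprl1, the nociceptin receptor, was higher than all 3 in every mouse with 23.9, 28.4 and 28.8 CPM, and per kb (9.01 against 0.959 for Oprm1). Among the peptide precursors, Penk (enkephalins) had 29.3, 18.5 and 23.6 CPM, Pdyn (dynorphins) 11.6, 16.2 and 13.3, Pnoc (nociceptin) 6.45, 5.53 and 4.80, and Pomc 3.49, 3.89 and 2.54. The sum of the 8 genes was nearly the same in the 3 mice, at 77.6, 78.1 and 78.8 CPM.

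Of the other neuropeptides and secretory granule proteins, 22 of 30 were at 1 CPM or more in every mouse, against 12604 of all 19069 known genes. After Npy, Sst and Cck came Scg2 (101, 159 and 137 CPM) and Chgb (106, 85.3 and 95.0), 2 granins of secretory granules. Tac1, the precursor of substance P, had 59.5, 65.2 and 58.7 CPM, Cort 19.5, 17.1 and 24.1, and Adcyap1 9.27, 14.4 and 11.6. Crh, the stress peptide, was under 1 CPM in every mouse, Avp had 2 reads in mouse 1 only, and Oxt had none. For endocannabinoids, Mgll, which breaks down 2-arachidonoylglycerol, was even at 173, 182 and 179 CPM, and the receptor Cnr1 had 27.4, 28.0 and 32.9 CPM, whereas Trpv1 had no read. For adenosine, Adora1 (240, 265 and 223 CPM) far exceeded Adora2a in every mouse and per kb (48.8 against 1.31).

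Genes of the synapse were all detected, 20 of 20 for vesicle release and 14 of 14 for the postsynaptic density. Of all 19069 known genes, 12604 were detected by the same rule. Rab3a, a GTPase of vesicles, had 1935, 1426 and 1293 CPM and Vamp2, the vesicle's fusion protein, 937, 1081 and 892. Dlg4, which encodes the scaffold PSD-95, had 338, 364 and 324 CPM, and the scaffold gene Shank1 120, 132 and 123 CPM. Immediate early genes, which report recent activity, had a median of 15.6 CPM, and 18 of 20 measured were at 1 CPM or more in every mouse. The tissue was taken directly after a behavioural test, and the part of that test in these levels was not tested. Egr1 had 114, 134 and 133 CPM, Arc 73.3, 77.0 and 70.0, Fos 55.8, 47.5 and 54.2, and Npas4 4.70, 5.83 and 5.08. Junb had 32.9, 10.2 and 11.4 CPM, with mouse 1 alone high. Among glucocorticoid-responsive genes, Sgk1 led with 291, 325 and 298 CPM and Fkbp5 had 32.3, 44.4 and 39.4. In the circadian list all 13 measured genes were at 1 CPM or more in every mouse, with Tef at 48.9, 53.2 and 52.5 CPM and Per2 at 5.91, 6.96 and 3.53.

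Kdm7a, the histone demethylase that the study targets in its other groups, had 9.95, 9.52 and 10.03 CPM on 74, 93 and 71 reads. It ranked 7715th of the known genes by mean CPM and lies at chr6:39136623-39206789 on the minus strand, with a reference transcript of 9566 bases. Its CV was 0.0277, and counting error alone gives 0.112 at its mean count of 79.3. Of its subfamily, Phf8 had 6.59, 5.83 and 6.92 CPM and Phf2 5.11, 3.58 and 6.07. Among the other demethylases of lysines 9 and 27 of histone H3, Kdm1a had 47.2, 58.6 and 54.1 CPM, Jmjd1c 42.1, 34.0 and 30.5, and Kdm6b 4.30, 3.79 and 4.80. Of the list, 13 of 14 genes were at 1 CPM or more in every mouse, against 12604 of all 19069 known genes. Fscn1, an actin-bundling protein at chr5:142960343-142973185 on the plus strand, had 54.4, 35.4 and 39.5 CPM, with mouse 1 highest. Fscn2, of the retina, was at or under 3 counts in each mouse, and Pls3, another bundling protein, was well above Fscn1 at 311, 356 and 345 CPM and per kb (104 against 16.1).

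Reference genes differed in how even they were. Actb, at 492, 406 and 412 CPM, ranked only 355th of the known genes, and per kb it stood at 227 against 12473 for Gapdh. Gapdh had a CV of 0.0868 and Actb of 0.110, against a median of 0.121 for the 6907 known genes with a mean count of at least 100. B2m (503, 491 and 496 CPM) and Rplp0 (384, 371 and 387 CPM) were more even than both, and Ywhaz (845, 547 and 610 CPM) was less even.

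The spread between mice exceeded counting error in most genes with enough reads. The CV had a median of 0.121 (quartiles 0.0758 and 0.187) over those 6907 genes, and it fell with depth, from 0.140 at mean counts of 100 to 300 to 0.0695 at 10000 or more. Counting error alone gives 0.0772 and 0.00812 at the middle gene of these ranges. The CV was larger than counting error in 80.7% of genes in the lower of these ranges and in 98.8% in the upper. The biological coefficient of variation, which edgeR estimates after removing counting error, was 0.183 over 13110 known genes with a mean count of at least 10. The labels name these as separate mice, but the spread also holds the preparation of each sample.

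**Figure D4:**
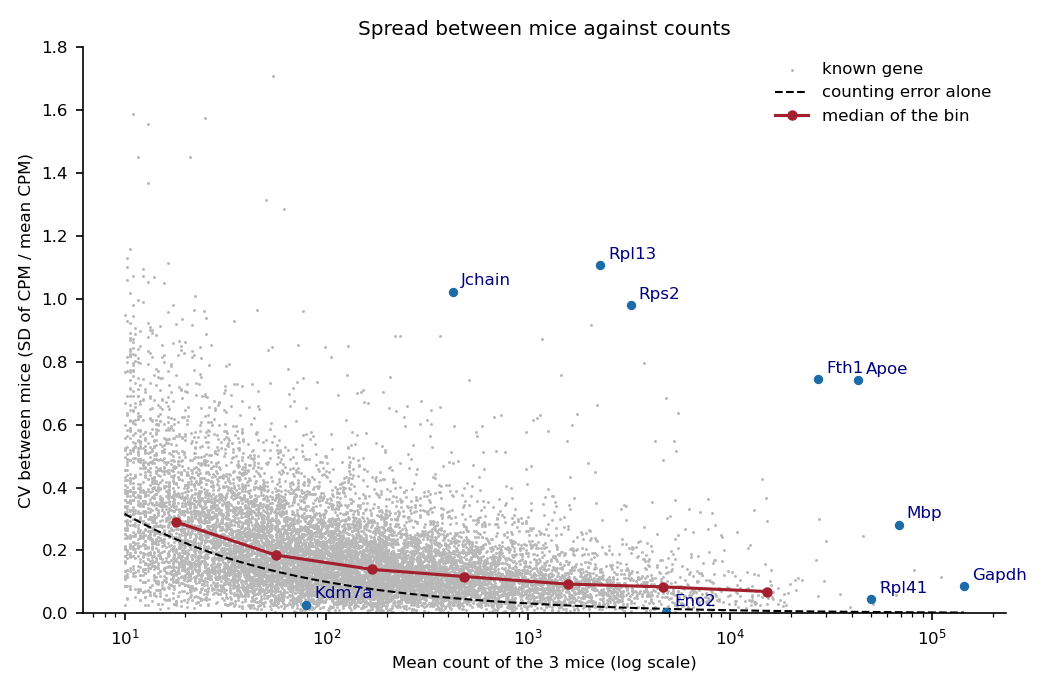
CV between the 3 mice against the mean count (log scale), 1 point per known gene with a mean count of at least 10, with the median of each range of counts in red and the CV that counting error alone gives as a dashed line. Rpl13, Jchain and Rps2 lie near 1, whereas Eno2 and Kdm7a lie under the dashed line.

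The most even genes were Sec23b (37.6, 37.7 and 37.8 CPM), Dcaf4, Nrp1, Eno2, Tmem199, Pik3ip1, Knop1, Creb3, Suclg1 and Prkar1a, all with a CV of 0.00397 or less. Eno2, the neuronal enolase, had 596, 592 and 595 CPM. Prkar1a, the regulatory subunit of protein kinase A, had 973, 971 and 965 CPM and Suclg1, of the citric acid cycle, 657, 657 and 661. Counting error alone gives a CV of 0.0572 for Sec23b and 0.0144 for Eno2, above the values seen, and 3 mice give a CV little precision. As a family, the 82 ribosomal protein genes with a mean count of at least 100 had a median CV of 0.0476, against 0.121 over all.

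The least even genes included ribosomal protein genes too. Rpl13 (chr8:123102350-123105244, plus strand) had 680, 49.2 and 175 CPM, and Rps2 (chr17:24718116-24721929, plus strand) had 883, 190 and 171. Clta, the light chain of clathrin, had 543, 132 and 117 CPM, Zcrb1, an RNA-binding protein of the minor spliceosome, 305, 65.2 and 86.4, and Rbp4, the carrier of retinol, 95.7, 19.0 and 27.8. Snrpf, Rps19bp1, BC029722 and Hint2 followed, and mouse 1 was above both other mice in each of these genes. Jchain, the joining chain of secreted immunoglobulins at chr5:88519809-88527891 on the minus strand, had another order, with 106, 49.1 and 0.141 CPM on 787, 480 and 1 reads.

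High spread went mostly with high values in mouse 1 and low values in mouse 2. Of the 6907 genes, 162 (2.35%) had a CV over 0.4, and 101 of these were highest in mouse 1, 36 in mouse 2 and 25 in mouse 3, whereas over all 6907 genes mouse 1 was highest in 1831. Mouse 2 was lowest in 90 of the 162, mouse 3 in 55 and mouse 1 in 17, against 2038, 1960 and 2909 of the 6907. Of the 101 genes highest in mouse 1, 68 were lowest in mouse 2. The 101 genes had a median reference transcript of 1398 bases at 55.03% GC, against 2892.5 bases at 50.3% GC over all. The 36 genes highest in mouse 2 had a median of 4195 bases at 51.6% GC, and the 25 highest in mouse 3 one of 1905 bases at 46.1% GC. Apoe, Fth1, Clta, Rps2 and Rpl13 are all in the first set.

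Differences between mice also moved with transcript length and GC content over all genes. From mouse 1 to mouse 2, the median log2 ratio of CPM ran from -0.16 for the 54 genes with transcripts under 500 bases to 0.20 for the 865 genes of 6000 bases or more. From mouse 1 to mouse 3 it ran from 0.20 in the 1151 genes of lowest GC content to -0.13 in the 1151 of highest. From mouse 2 to mouse 3 it fell with length, from 0.09 to -0.14. Over 6906 genes with a transcript in the annotation, Pearson's r of the log2 ratio with log2 length was 0.27, 0.07 and -0.22 for the 3 pairs, and with GC content -0.14, -0.30 and -0.14. Genes share the same 3 samples, so these are descriptions with no test. The part that length and GC content had in any single gene's spread was not tested. The ratio between 2 mice nevertheless stayed within 1.5-fold for 89.3% to 92.8% of these genes.

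**Figure D5:**
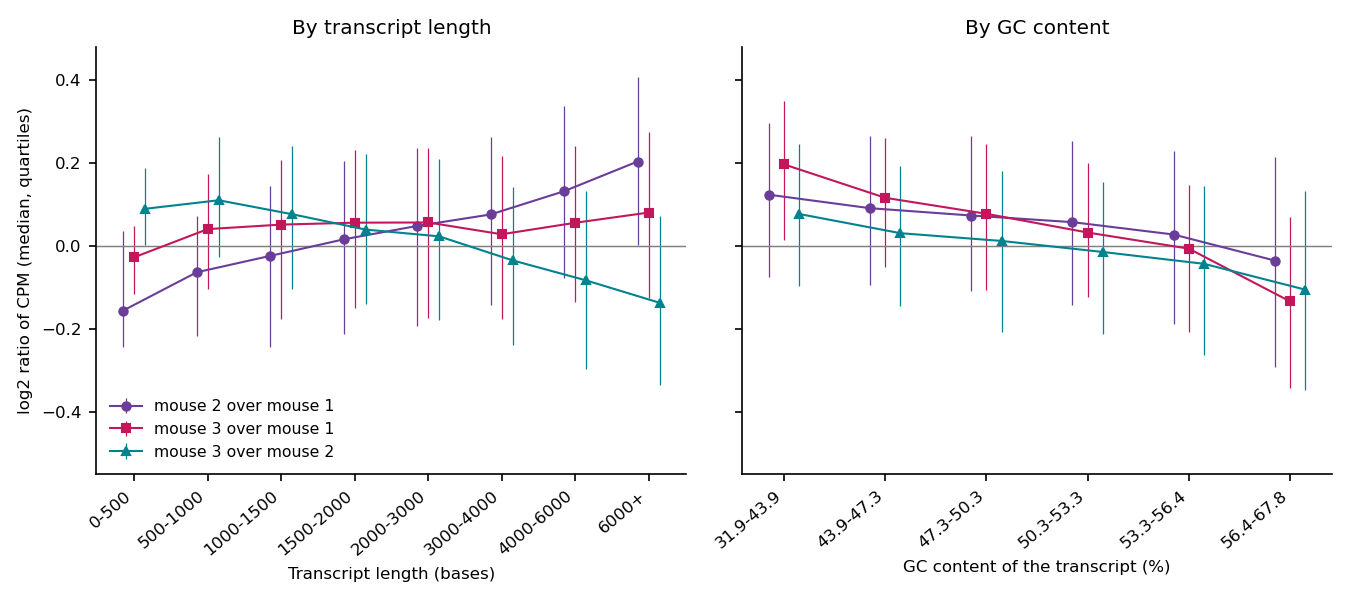
Median log2 ratio of CPM between pairs of mice, with quartiles as bars, for 6906 known genes grouped by transcript length (left, 8 ranges) and by GC content (right, 6 equal groups). The ratio of mouse 2 to mouse 1 climbs with length, and that of mouse 3 to mouse 1 declines with GC content.

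Because reads under 500 bases had been removed before counting, short transcripts were looked at separately. The 256 known genes whose reference transcript is under 500 bases summed to 21843, 19489 and 20988 CPM, and 29.3% of them were at 1 CPM or more in every mouse. That share rose with each range of length, to 82.6% of the 2069 genes of 6000 bases or more, and the median level rose with it from 0.1996 to 9.285 CPM. The part that the removal of short reads had in this was not tested.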

How the data were processed

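One mPFC cDNA library per mouse was amplified with 14 PCR cycles and read on the Nanopore platform. The authors removed reads under 500 bp or under quality 7 and ribosomal RNA reads, placed full-length reads on mm10 with minimap2, and deposited counts of reads with a mapping quality over 5 for each gene or assembled locus. The CPM values are the deposited ones, and they were checked to equal the deposited counts scaled with all listed entries in the total. The submitters' processing notes name edgeR 3.8.6. Replicates are different mice. Transcript lengths and positions came from GENCODE vM21 and promoters from RefSeq.

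Means, SDs and CVs were computed in Python 3.11.15 with pandas 2.3.3. The dispersion was estimated in R 4.3.3 with edgeR 4.0.16, and this step was tested on simulated data. No groups were compared and no test was run. Detection means 1 CPM or more in every mouse, and summaries and rankings of the CV use known genes with a mean count of at least 100. The smallest detectable level is 3 counts, which covers counting error only, since PCR copies are not independent molecules. In the table, 17 symbols occur more than once.

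Members and gene lists were chosen with earlier results of these data known. The genes named are the 20 most abundant known genes, Kdm7a, Fscn1, Gapdh and Actb, the 3 highest, the lowest and any undetected member of each list, the genes that define a transmitter system, the 10 largest and the 10 smallest CVs, and the least even member of each list. Other members of the lists named as examples, and the locus ONT.15475, were chosen after their values were seen. Some genes that the rule names are not reported here. Alternatives were another denominator, scaling, detection rule or count minimum, values per kb, and leaving out each mouse.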

Additional observations from a re-analysis of the deposited data

How the results depend on the processing

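Levels per kb of transcript moved the most: the 100 most abundant genes then held 42.4% in place of 27.3%, and 159 in place of 466 entries held 50%. Of the 39 list sums, 34 moved by over 1.5-fold per kb. With known genes alone in the denominator, the first value was 28.6% and the share of assembled loci 11.3% in place of 10.04%. That share was 9.09% with ONT.15475 left out of the total, an alternative chosen after seeing the data. The median CV of 0.121 became 0.146 at a mean count of at least 20 and 0.0991 at 500. The biological coefficient of variation of 0.183 became 0.167 at a mean count of at least 100. The causes of these shifts were not tested.

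Leaving out each mouse in turn gave 0.0955 to 0.104 for the median CV, 0.170 to 0.199 for the biological coefficient of variation, 16565 to 16649 detected entries, 26.7% to 27.7% for the 100 most abundant, 458 to 477 entries for 50% of the counts, 9.67% to 10.4% for assembled loci and 0.404 to 0.487 for the ratio of GABA to glutamate genes. Detected members numbered 172 to 179 for the cell lists and 134 for the transmitter lists. No paired analysis was possible because a single group was described and no test was run. With 3 mice, SDs and CVs are imprecise, and genes under about 10 counts cannot be ordered.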

Other observations

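The following genes were chosen after their values were seen, so their pattern is a description with no test. Immunoglobulin genes were found with Jchain in mice 1 and 2. Igkv4-54, a kappa light chain variable segment, had 19.2, 4.30 and 0 CPM in mice 1, 2 and 3, and Mzb1, a chaperone of antibody-secreting cells, had 4.03, 1.74 and 0 CPM. The 15 genes of immunoglobulins and plasma cells summed to 178, 80.7 and 24.3 CPM. Most of the sum in mouse 3 was Xbp1, a stress factor of many cell types, at 21.2 CPM. Of the 15 genes, 12 were lowest in mouse 3, against 1960 of the 6907 known genes with a mean count of at least 100. Only 2 of the 15 genes reached that mean count, so the share is not one for genes with so few reads. Some members differed little between mice, at low levels, such as Derl3 (1.61, 1.43 and 1.13 CPM), Fkbp11 (1.08, 0.819 and 0.847 CPM) and Tnfrsf17 (0.403, 0.512 and 0.424 CPM). Variable segments resemble each other, so the segment a read was given to is uncertain.

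MHC class II genes, which present antigen, were also lowest in mouse 3. H2-Ab1 had 171, 217 and 52.3 CPM and Cd74, the invariant chain, 48.4, 56.7 and 10.2 CPM. All 7 genes were lowest in mouse 3, against 1960 of the 6907 known genes with a mean count of at least 100. Of the 7 genes, 5 reached that mean count. The microglial list was highest in that mouse, at 3473 CPM against 2773 and 2456 CPM.

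Some genes of the olfactory system were highest in mouse 1. S100a5 had 21.8, 0.205 and 0 CPM and Omp, the olfactory marker protein, 2.69, 0.102 and 0 CPM. Gng13, a G protein subunit, had 56.6, 14.9 and 26.3 CPM.

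Assembled loci with numbers close to each other were lowest in mouse 3. ONT.4709 had 3045, 1767 and 414 CPM, ONT.4710 1056, 678 and 3.53 CPM, and ONT.4712 53.1, 57.6 and 0 CPM. ONT.15475 had 19678, 11652 and 26.3 CPM. What these loci encode was not analysed here.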
